A study of Homo sapiens with 9 samples.

Results

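The aminoacyl-tRNA synthetases are the enzymes that load each transfer RNA with its amino acid. Their genes were taken by name from the protein-coding rows of the deposited count table, where the stem of the name gives the amino acid in one-letter code and ends in ARS, with FARSA, FARSB, EPRS and TARSL2 added. This gave 38 genes of 58336 listed, among 19883 protein-coding ones. They were split by name into 20 cytosolic enzymes and 17 whose name ends in 2, the mitochondrial ones. The split rests on the name alone, so a gene that serves both compartments is counted as cytosolic. TARSL2 was kept apart, since its name ends in 2 but it is another threonyl-tRNA synthetase that is not described as mitochondrial. The table uses older symbols, so AARS, CARS, WARS and the like are the genes now called AARS1, CARS1 and WARS1. All 38 passed the filter on low counts, and 13845 genes in all were tested.

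RNA came from HaCaT cells, an immortalised line of human skin keratinocytes grown in serum-containing medium. Per the labels, 3 samples were untreated controls, and 3 plus 3 samples received photodynamic therapy at low dose. In this treatment 5-aminolevulinic acid (ALA, here 0.5 mmol per litre) is converted by the cells into the photosensitiser protoporphyrin IX, and red light (635 ± 5 nm, 3 J per square centimetre) then excites it. The treated groups were collected 12 h and 48 h afterwards. Library columns in the table carry the stems Nc, A and B, each numbered 1 to 3. Nc was read as control, and A and B as the 2 treated groups, because 9 columns stand for 9 samples. Nothing ties A or B to 12 h or 48 h, so both are named by stem and no statement about time is made. The labels do not say whether replicates were separate cultures, so the p-values measure the spread between these libraries, which may be technical.

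Each synthetase recognises its amino acid and the matching transfer RNAs, activates the amino acid with ATP and joins the pair. The enzymes fall into class I and class II by the fold of their catalytic domain, and separate nuclear genes serve the cytosol and the mitochondrion for most amino acids. In the cytosol several of them sit with the scaffold proteins AIMP1, AIMP2 and EEF1E1 in the multisynthetase complex. When uncharged transfer RNA accumulates, the kinase GCN2 (EIF2AK4) phosphorylates the initiation factor eIF2, translation slows, and the transcription factor ATF4 is made. ATF4 is known to raise genes of amino acid uptake and synthesis and many cytosolic synthetases, through C/EBP-ATF response elements in their regulatory sequence. WARS is also known as a gene induced by interferon gamma.

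Totals were 15337296 to 18028419 counts per library, and the 38 synthetases took 0.290% to 0.387% of them. Of the keratinocyte markers, KRT5 had 5016 to 7991 counts and TP63 1952 to 3491 counts in every library, while KRT14, a keratin with close copies, had 2 to 20. Blood transcripts set some libraries apart. Over 7 blood markers the total was 7609, 7687 and 15 counts for Nc1, Nc2 and Nc3, then 669, 1302 and 45 for A1, A2 and A3, and 22, 52 and 8680 for B1, B2 and B3, in the high libraries mostly from the globin gene HBB. The 4 endothelial markers summed to 27 to 70 counts in Nc and A libraries and to 197 to 241 in B, nearly all from CDH5, with VWF and KDR at or near 0. Melanocyte markers summed to 14 to 27 counts in Nc and A and to 43 to 46 in B, with TYR listed at 0 throughout, and fibroblast markers to 26 to 186 counts. Of the keratinocyte markers, 4 of 7 rose in A against control and 2 of 7, KRT5 and KRT14, fell in B. Apart from the fits without the HBB libraries given below, the part of these transcripts in the results was not tested.

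In control libraries the synthetase messenger RNAs spanned a wide range on the FPKM scale, the authors' fragment counts scaled to gene length and library size. FARSA, the catalytic subunit of the cytosolic phenylalanyl-tRNA synthetase, was highest at 67.2 ± 8.51 FPKM (SD, n = 3, here and below). KARS (lysine) followed at 61.9 ± 8.24 and SARS (serine) at 44.8 ± 1.58 FPKM. At the other end, SARS2, the mitochondrial seryl-tRNA synthetase, stood at 0.45 ± 0.0604 FPKM and TARSL2 at 1.4 ± 0.331 FPKM. The SARS2 gene overlaps MRPS12 on the opposite strand. MRPS12 had a mean of 1949 counts against 29 for SARS2, and the part of this overlap in the low value was not tested. The median over the 20 cytosolic enzymes was 24.2 FPKM and over the 17 mitochondrial ones 7.85 FPKM.

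The order of levels was not a clean split by compartment. IARS2 (isoleucine, mitochondrial) at 29.5 ± 4.81 FPKM and YARS2 (tyrosine, mitochondrial) at 24.1 ± 0.797 FPKM lay among the cytosolic enzymes. CARS, the cytosolic cysteinyl-tRNA synthetase, was the lowest cytosolic member at 3.83 ± 0.178 FPKM, below its mitochondrial counterpart CARS2 at 10.0 ± 0.887 FPKM. Of the 37 pairs of neighbours in the order, 30 had overlapping library values, so most adjacent ranks do not differ beyond the spread between libraries. Levels of different genes depend on the gene length the authors divided by, and GC content may weigh on them too.

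**Figure D1:**
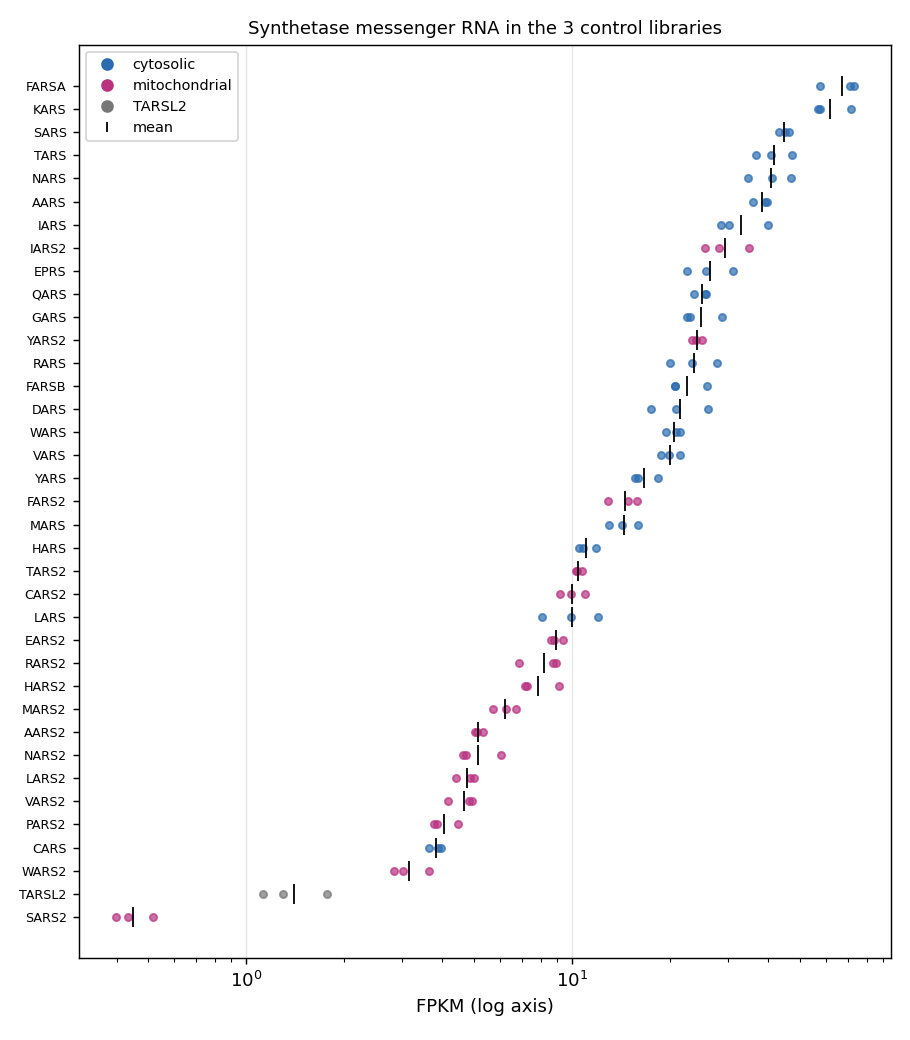
FPKM of 37 synthetase genes in the 3 control libraries on a log axis, ordered by the mean (black tick), with cytosolic enzymes in blue, mitochondrial ones in magenta and TARSL2 in grey. FARSA is highest at a mean of 67.2 FPKM and SARS2 lowest at 0.45 FPKM, and most neighbours overlap.

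In B libraries 7 cytosolic synthetases rose and 4 fell against control, and no mitochondrial one was called. The 7 that rose were CARS, WARS, SARS, AARS, MARS, QARS and YARS, by 1.31 to 2.02 times. FARSB, RARS, VARS and FARSA fell, by 1.38 to 1.65 times. Calls are at an adjusted p under 0.05 in edgeR's quasi-likelihood test over all 9 libraries. Over all genes tested, 6.12% were called higher and 7.24% lower in this comparison, so the 4 of 38 that fell lie close to the background share, and the 7 of 38 that rose above it. Medians show no common shift: the 38 synthetases had a median log2 fold change of -0.10, and all genes tested one of -0.00. With offsets for the GC content and length of the transcripts, the split became 6 higher and 10 lower, against 11.5% and 11.3% of all genes in that fit. Without a filter on low counts it was also 6 and 10, against 2.92% and 5.49% of all genes.

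The largest change was that of CARS, which charges cysteine. It stood at 3.97, 3.63 and 3.88 FPKM in Nc1, Nc2 and Nc3, at 4.12, 3.56 and 3.74 in A1, A2 and A3, and at 6.60, 7.77 and 8.59 in B1, B2 and B3. Every B library lay above all 6 others, and A and control overlapped. CARS rose 2.02-fold in B, a log2 fold change of 1.01 (SE 0.12, adjusted p = 0.000266 in edgeR). WARS, the tryptophan enzyme, gave 21.4, 19.4 and 20.8 FPKM in control, 21.8, 21.4 and 20.2 in A and 32.6, 33.7 and 36.3 in B. The B libraries again formed a group of their own, with a log2 fold change of 0.75 (SE 0.11, adjusted p = 0.00128 in edgeR).

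SARS showed 46.1, 45.1 and 43.0 FPKM in control, 45.8, 48.2 and 39.2 in A and 62.6, 68.9 and 71.0 in B. Its A values overlapped the control values, and its B values lay above both, with a log2 fold change of 0.60 (SE 0.12, adjusted p = 0.00596 in edgeR). AARS, which charges alanine, gave 39.0, 35.9 and 39.6 FPKM in control, 36.1, 33.9 and 33.7 in A and 56.5, 50.8 and 58.4 in B. Its B libraries were all higher than the other 6, by a log2 fold change of 0.54 against control (SE 0.11, adjusted p = 0.00727 in edgeR). MARS, which charges methionine for initiation and elongation alike, had 15.9, 13.0 and 14.2 FPKM in control, 15.1, 14.2 and 14.3 in A and 19.9, 20.7 and 21.4 in B. A and control overlapped and B lay above them, at a log2 fold change of 0.53 (SE 0.12, adjusted p = 0.00826 in edgeR). The MARS gene overlaps the ATF4 target DDIT3 on the opposite strand, and whether counting used the strand is not given in the sources used here. DDIT3 had a mean of 213 counts against 1952 for MARS.

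The remaining members called higher changed less. QARS (glutamine) stood at 23.6 to 25.7 FPKM in control, 23.2 to 25.2 in A and 32.8 to 36.1 in B, a log2 fold change of 0.47 (adjusted p = 0.0133 in edgeR). YARS (tyrosine) stood at 15.6 to 18.3, 14.7 to 17.2 and 20.7 to 22.1 FPKM, a log2 fold change of 0.39 (adjusted p = 0.0399 in edgeR). For both genes the B values lay above all values of control and A. YARS also overlaps S100PBP on the opposite strand. GARS (glycine) was not called, with a log2 fold change of 0.37 (SE 0.14, adjusted p = 0.0779 in edgeR).

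**Figure D2:**
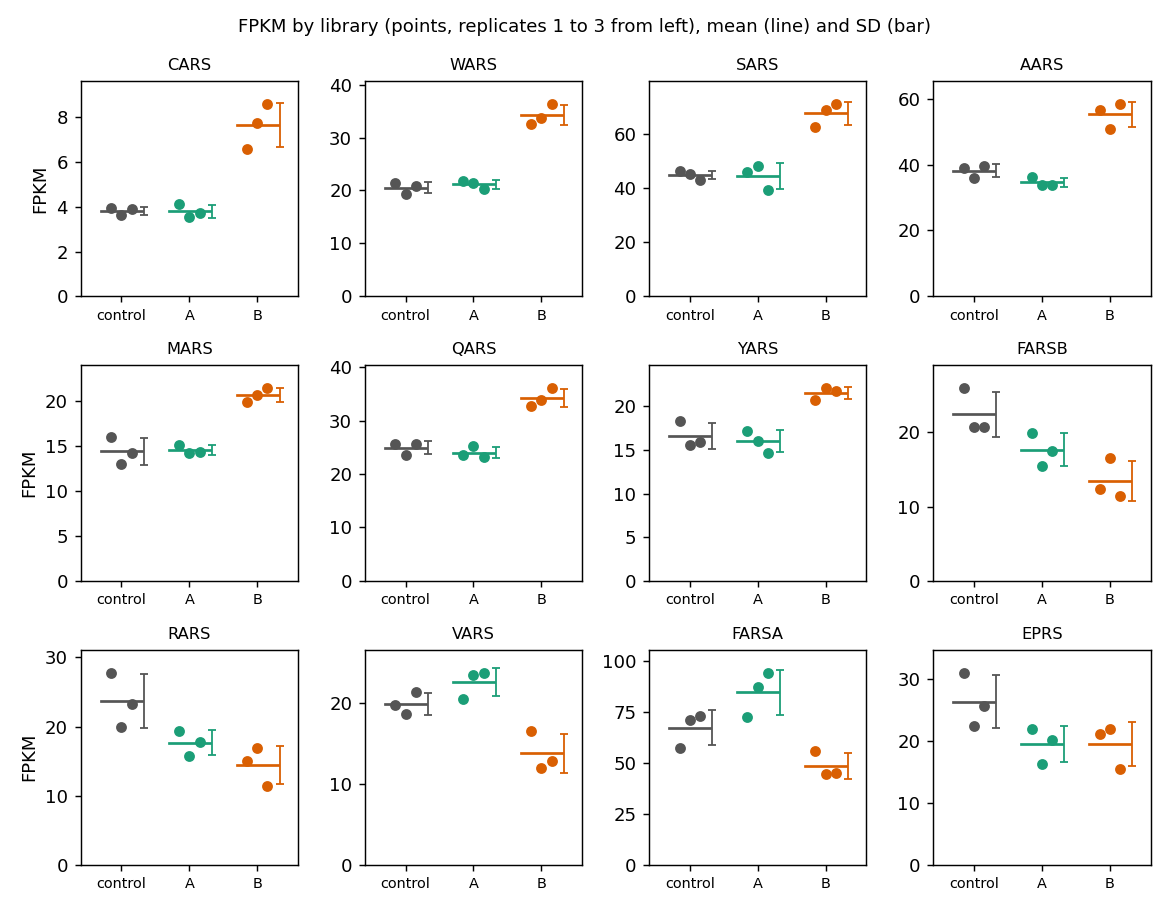
FPKM of the 11 synthetases called in B against control, and of EPRS, in each library (points, replicates 1 to 3 from left), with the mean (line) and SD (bar) of each group of 3. For CARS, WARS, SARS, AARS, MARS, QARS and YARS the B points lie above all others, and for FARSB, RARS, VARS and FARSA below all control points.

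By position on GRCh38, as the deposited table gives it, the 7 genes that rose lie on different chromosomes except for SARS and YARS, so they are no single cluster. CARS (ENSG00000110619) spans chr11:3000922-3057613 and WARS (ENSG00000140105) chr14:100333788-100376805, both on the minus strand. SARS (ENSG00000031698) spans chr1:109213918-109238169 on the plus strand and AARS (ENSG00000090861) chr16:70252295-70289543 on the minus strand. MARS (ENSG00000166986) lies at chr12:57475445-57517569 on the plus strand, QARS (ENSG00000172053) at chr3:49095932-49105135 and YARS (ENSG00000134684) at chr1:32775237-32818153, both on the minus strand. Of those that fell, FARSB (ENSG00000116120) lies at chr2:222570536-222656337, VARS (ENSG00000204394) at chr6:31777518-31795953 and FARSA (ENSG00000179115) at chr19:12922479-12934037, on the minus strand. RARS (ENSG00000113643) lies at chr5:168486445-168519299 on the plus strand. The 2 subunits of 1 enzyme, FARSA and FARSB, are therefore on different chromosomes.

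Because several members rose together, their promoters were searched for the C/EBP-ATF response element, the sequence that ATF4 is known to bind with C/EBP partners. RefSeq windows on GRCh38.p14 reach from 250 bases before to 50 bases after a transcript start. They were found for 30 of the 38 members, 39 windows in all. The letters TGATGNAA, read on both strands, occurred in 8 of these 39 windows (20.5%), each of a different member, against 3.62% of all 35116 windows. The matches are shown with 10 bases on either side, 5′ to 3′ on the strand of the gene and in lower case, with the element in capitals:
CARS: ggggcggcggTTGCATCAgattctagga
MARS: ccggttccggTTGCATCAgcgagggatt
TARS: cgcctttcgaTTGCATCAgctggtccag
IARS: tttcagcgcgTTGCATCAcctccgtgcg
AARS: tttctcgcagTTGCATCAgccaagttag
NARS: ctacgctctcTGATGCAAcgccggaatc
GARS: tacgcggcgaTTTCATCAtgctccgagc
YARS2: tccacactgcTGATGGAAaaattaagtt

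CARS, MARS, TARS, IARS and AARS share the same 8 letters, TTGCATCA, and NARS has their reverse complement TGATGCAA. In CARS, MARS, TARS, IARS and NARS the element begins within 15 bases of the RefSeq start, at positions -2, -4, 3, -13 and 15 (there is no position 0). The GARS match begins at -33, and those of AARS and YARS2 lie further upstream, at -187 and -197. The printed stretches are chr11:3057408-3057435 for CARS, chr12:57488054-57488081 for MARS, chr5:33440957-33440984 for TARS and chr9:92293693-92293720 for IARS. Those of AARS, NARS, GARS and YARS2 are chr16:70289676-70289703, chr18:57621805-57621832, chr7:30594835-30594862 and chr12:32756077-32756104. MARS, TARS and GARS are on the plus strand and the others on the minus strand.

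Matches were found in members that rose and in members that were not called. Of the 8 members with a match, CARS, MARS and AARS rose in B, while TARS, IARS, NARS, GARS and YARS2 were not called. TARS, with the same element beside its start as CARS, stood at 36.6 to 47.4 FPKM in control, 25.3 to 32.6 in A and 24.9 to 36.0 in B. Conversely, of the 6 members that rose and have a window, WARS, SARS and QARS hold no match in it, and the 3 that fell and have a window (FARSA, FARSB and RARS) hold none either. A match is a stretch of letters and not a measured binding site. Whether matches go with the changes was not tested. Sequence outside the windows was not searched, and 8 members, YARS and VARS among them, have no window.

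For CARS, the member with the largest change, the sequence from the start of its window to the end of the element (chr11:3057418-3057673, minus strand, 256 bases, 66.4% G or C) is printed with the element in capitals:
CARS promoter: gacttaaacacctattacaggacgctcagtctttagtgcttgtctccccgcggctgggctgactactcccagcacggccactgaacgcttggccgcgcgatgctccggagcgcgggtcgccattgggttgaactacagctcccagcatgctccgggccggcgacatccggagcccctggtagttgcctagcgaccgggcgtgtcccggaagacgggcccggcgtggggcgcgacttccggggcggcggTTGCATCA

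The interferon-stimulated pattern, GAAA and GAAA again with any pair of bases between and also read on both strands, was present in windows of WARS and EARS2 alone among the members, 3 of 39 windows (7.69%) against 3.57% of all windows. The EARS2 match is the same stretch of bases in overlapping windows, so 2 of 30 members (6.67%) hold the pattern. It is shown for WARS, which rose, at chr14:100375383-100375412 on the minus strand, with the pattern in capitals:
WARS: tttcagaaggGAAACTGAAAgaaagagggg
Of 9 genes of the interferon gamma response reported here, edgeR called 0 in B against control, with 1 at an unadjusted p under 0.05 and 0 called by DESeq2 or limma. Their log2 fold changes ran from -0.99 to 0.44, with a median of 0.02. In A against control the median was -0.35 and GBP1, an interferon-induced GTPase, was called lower at -0.64. In B against A the median was 0.34, and GBP2, another such GTPase, and the transcription factor IRF1 were called higher, at 1.01 and 0.44.

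Of the 4 members that fell in B, FARSB and RARS have transcripts of low GC content (41.6% and 41.4%), and FARSA and VARS of high GC content (60.3% and 62.6%). FARSB, the other subunit of the phenylalanine enzyme, gave 26.0, 20.7 and 20.7 FPKM in control, 19.98, 15.5 and 17.5 in A and 12.4, 16.6 and 11.4 in B. The B libraries lay below all controls, with a log2 fold change of -0.73 (SE 0.15, adjusted p = 0.00753 in edgeR). RARS (arginine) gave 27.8, 19.9 and 23.3 FPKM in control, 19.4, 15.8 and 17.8 in A and 15.02, 16.9 and 11.4 in B, a log2 fold change of -0.70 (SE 0.16, adjusted p = 0.0098 in edgeR). For RARS the A values lay between the groups and overlapped B.

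FARSA and VARS fell in B and were not called in A. FARSA gave 57.5, 71.2 and 73.0 FPKM in control, 72.5, 86.9 and 94.2 in A and 55.7, 44.8 and 44.8 in B. Control and A overlapped, and the B libraries lay below both, with a log2 fold change against control of -0.46 (SE 0.14, adjusted p = 0.0437 in edgeR). VARS (valine) gave 19.8, 18.7 and 21.4 FPKM in control, 20.6, 23.5 and 23.8 in A and 16.6, 12.0 and 12.9 in B, a log2 fold change of -0.52 (SE 0.14, adjusted p = 0.0209 in edgeR). Its B values were the lowest of all 9 libraries.

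The 9 other cytosolic enzymes were not called in B. NARS (asparagine), LARS (leucine), EPRS (the joined glutamate and proline enzyme), IARS (isoleucine) and TARS (threonine) had log2 fold changes of -0.45, -0.44, -0.42, -0.41 and -0.40, with adjusted p of 0.061, 0.0821, 0.0914, 0.0794 and 0.0937 in edgeR. DARS (aspartate) stood at -0.30, KARS at -0.10 and HARS (histidine) at 0.03 on the same scale, and GARS is given above.

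No mitochondrial synthetase was called in B against control by edgeR. At an unadjusted p under 0.05 in edgeR there were 7 of 17 (41.2%), against 29.2% of all genes tested. Of the 17, 1 was higher (5.88%) and 6 lower (35.3%), against 14.0% and 15.2% of all genes. DESeq2 called 1 higher, HARS2, against 951 of all 13845 genes tested, and limma called 0. HARS2 had the lowest adjusted p, 0.0542 in edgeR, at a log2 fold change of 0.39. Its 5′ end overlaps the HARS gene on the opposite strand, and it also overlaps ZMAT2 on the same strand. ZMAT2 had a mean of 1548 counts against 545 for HARS2, and the part of these overlaps was not tested. The other 16 ranged from -0.40 log2 for IARS2 to 0.27 for SARS2, and TARSL2 stood at -0.10. With GC content and length offsets, 4 of the 17 mitochondrial members were called lower, against 11.3% of all genes in that fit. Among them were IARS2 at -0.32, EARS2 (glutamate) at -0.38 and TARS2 (threonine) at -0.26 log2.

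Ratios of cytosolic to mitochondrial enzyme for the same amino acid were taken within each library, where the scaling of the library drops out. WARS to WARS2 was 5.89, 6.85 and 6.89 in control, 6.47, 7.57 and 6.98 in A and 12.5, 14.8 and 14.2 in B. CARS to CARS2 was 0.331 to 0.432 in control, 0.304 to 0.436 in A and 0.582 to 0.824 in B. AARS to AARS2 was 6.76 to 7.85 in control, 5.67 to 6.65 in A and 11.4 to 12.1 in B. Over the 18 pairs of a cytosolic and a mitochondrial gene for the same amino acid, the B ratios lay above all those of control and A in 6, below them all in 3, and neither in 9. The 6 were the pairs of WARS, CARS, AARS, MARS, SARS and YARS. The SARS pair rests on SARS2, which had a mean of 29 counts and overlaps MRPS12. The 3 were the pairs of HARS, VARS and FARSA. HARS to HARS2 stood at 1.30 to 1.48 in control, 1.56 to 1.85 in A and 1.05 to 1.17 in B. These genes overlap each other on opposite strands, and HARS2 overlaps ZMAT2 on the same strand. The 2 subunits of the phenylalanine enzyme, FARSA to FARSB, had ratios of 2.21 to 3.52 in control, 3.63 to 5.59 in A and 2.70 to 4.51 in B, so B overlapped both. These ratios are descriptions and carry no test. Besides these, only the ratios of TARS to TARSL2 and of WARS and CARS to EPRS were taken. Whether such counts are unusual is therefore not known.

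**Figure D3:**
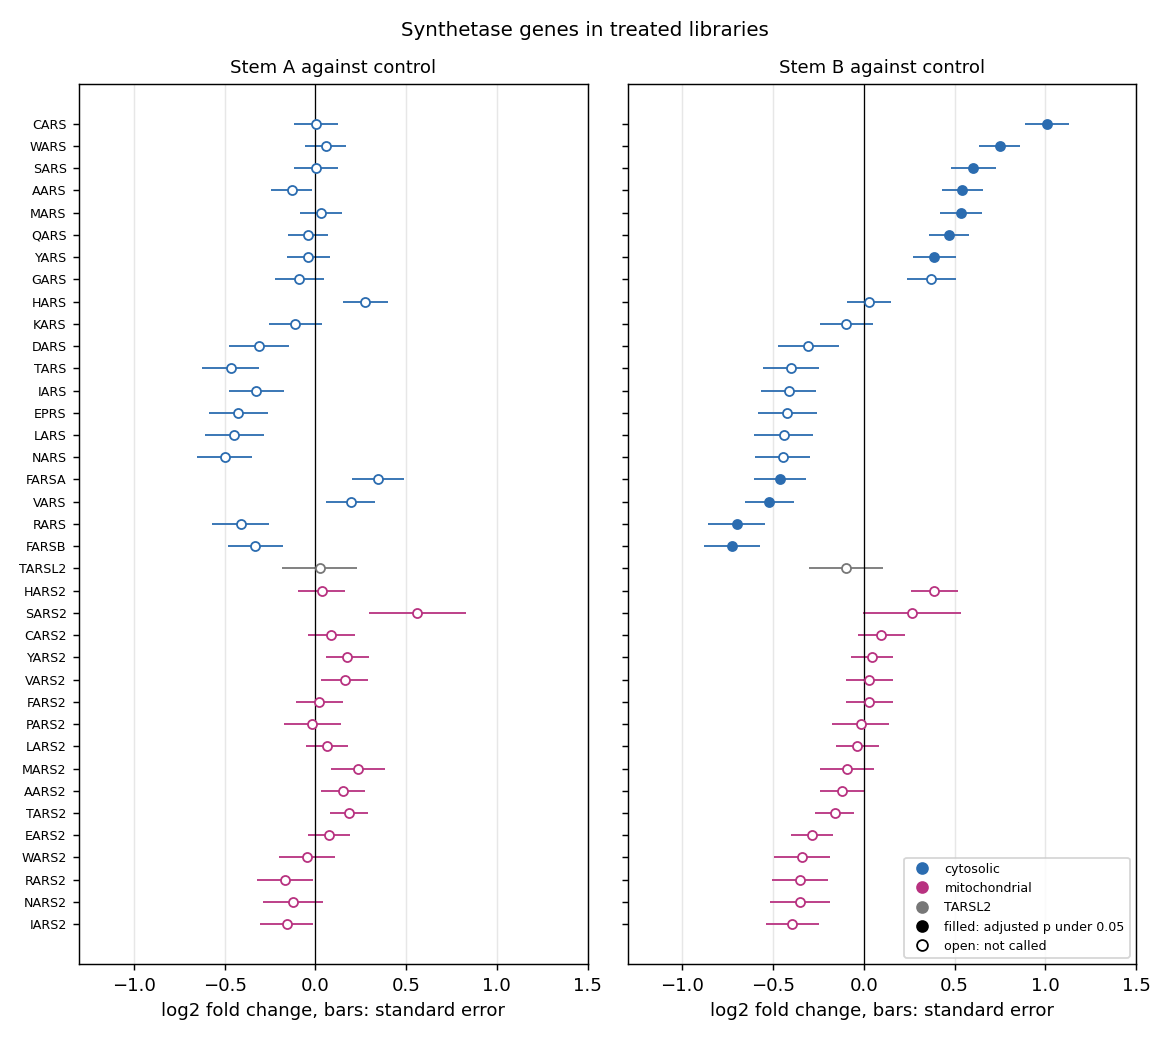
Log2 fold changes against control (points) with standard errors (bars) for 37 synthetases, stem A on the left and stem B on the right, filled where the adjusted p was under 0.05 in edgeR. In B, 7 cytosolic enzymes lie to the right and 4 to the left with filled points, and no point is filled in A.

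The calls depended on which libraries were fitted. Without B3, the B library with globin transcripts, 3 members rose (CARS at 0.93, WARS at 0.71 and SARS at 0.58 log2) and none fell in edgeR, against 2.05% and 1.44% of all genes, with 13 of 38 at an unadjusted p under 0.05. The 8 members that lost the call stood at 0.39 to 0.52 and at -0.61 to -0.40 log2 without B3, beside 0.39 to 0.54 and -0.73 to -0.46 with it. Without the 5 libraries of over 100 HBB counts (Nc1, Nc2, A1, A2 and B3), edgeR called 0 of 38, against 0.326% of all genes higher and 0.0694% lower, with 2 at an unadjusted p under 0.05, while the 11 log2 fold changes ranged from 0.40 to 0.91 and from -0.57 to -0.50. YARS (0.29 to 0.46 over all alternatives) and FARSA (-0.57 to -0.40) each lost the call without Nc2, Nc3, A2, A3, B2 or B3, and QARS and VARS lost it without Nc3 and, for VARS, without B2.

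No synthetase was called in A against control by edgeR, where 1.76% of all genes tested were called higher and 0.953% lower. At an unadjusted p under 0.05 in edgeR there were 9 of 38 (23.7%), beside 22.6% of all genes tested. Of the 38, 2 were higher (5.26%) and 7 lower (18.4%), against 11.4% and 11.1% of all genes. All 9 were cytosolic, 45.0% of the 20 cytosolic enzymes, and 0 of the 17 mitochondrial ones were among them. DESeq2 called 2 lower, TARS and NARS, against 365 of all 13845 genes tested, and limma called 0. NARS had the lowest adjusted p, 0.0884, with 47.0, 34.6 and 40.9 FPKM in control and 31.0, 24.2 and 30.7 in A, a log2 fold change of -0.50 (SE 0.15). TARS gave 47.4, 36.6 and 40.8 FPKM in control and 32.6, 25.3 and 31.5 in A, at -0.47 (SE 0.16, adjusted p = 0.109). For both genes the A libraries lay below all control libraries. LARS stood at -0.45, EPRS at -0.42, RARS at -0.41 and FARSA at 0.34 log2, with adjusted p between 0.135 and 0.176 in edgeR. The mitochondrial members ranged from -0.17 for RARS2 to 0.56 for SARS2, whose level was 0.399 to 0.517 FPKM in control and 0.566 to 0.722 in A (adjusted p = 0.226 in edgeR). TARSL2 stood at 0.02. Without the libraries of over 100 HBB counts edgeR again called 0 of 38, with 0 at an unadjusted p under 0.05.

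Same-numbered Nc and A libraries deviated together from their group means, so the replicate number was also fitted as a block in the Nc and A libraries alone. This pairing was read from the same data and is not given by the labels. With this block edgeR called 3 synthetases higher and 8 lower in A. FARSA, HARS and VARS rose, at 0.32, 0.25 and 0.17 log2. NARS, TARS, LARS, EPRS, RARS, FARSB, IARS and DARS fell, at -0.52, -0.49, -0.46, -0.44, -0.43, -0.35, -0.34 and -0.33 log2. In that fit 16.5% of all genes were called higher and 18.3% lower, so 8 of 38 is near the background. All 8 that fell have transcripts of 41.2% to 44.3% GC. With GC content and length offsets beside the block, 1 was called higher (HARS at 0.28) and 9 lower, against 7.05% and 7.4% of all genes, so the 9 of 38 lie above the background share in that fit. FARSB and DARS were no longer among those 9, and AARS at -0.29, YARS at -0.24 and QARS at -0.23 log2 joined them. FARSA at 0.07 and VARS at -0.13 log2 were not called with these offsets, so VARS changed sign.

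Transcript GC content moved with the fold changes of all genes. All genes tested were ranked by GC content and cut into 5 bins of equal size. In A against control the median log2 fold change was -0.29 in the bin of lowest GC content and 0.26 in the highest. No synthetase lies in the lowest bin. In the next bin, where the median of all genes in A was -0.15, all 8 cytosolic members stood lower, at -0.50 to -0.31, while the 5 mitochondrial ones stood at -0.17 to -0.05. In the fourth bin, with a median of 0.14, all 6 cytosolic members were again below it, at -0.13 to 0.06. So were 4 of the 5 mitochondrial ones there, which ranged from -0.02 to 0.19. In B against control the medians of the lowest and highest bins were -0.26 and 0.05. In the second bin, with a median of -0.08, members of both compartments stood lower. The 8 cytosolic ones were at -0.73 to -0.30 and the 5 mitochondrial ones at -0.40 to -0.33. The 7 members that rose in B span 51.5% to 55.7% GC, where the median of all genes was 0.09. With offsets for GC content and length, CARS stood at 0.94, WARS at 0.64, SARS at 0.51, AARS at 0.44, MARS at 0.43 and QARS at 0.37 log2, all still called. YARS at 0.29 was no longer called (adjusted p = 0.092 in edgeR). The 4 that fell remained called at -0.51 to -0.61, and NARS at -0.41 and IARS at -0.31 were among the 6 others then called lower.

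**Figure D4:**
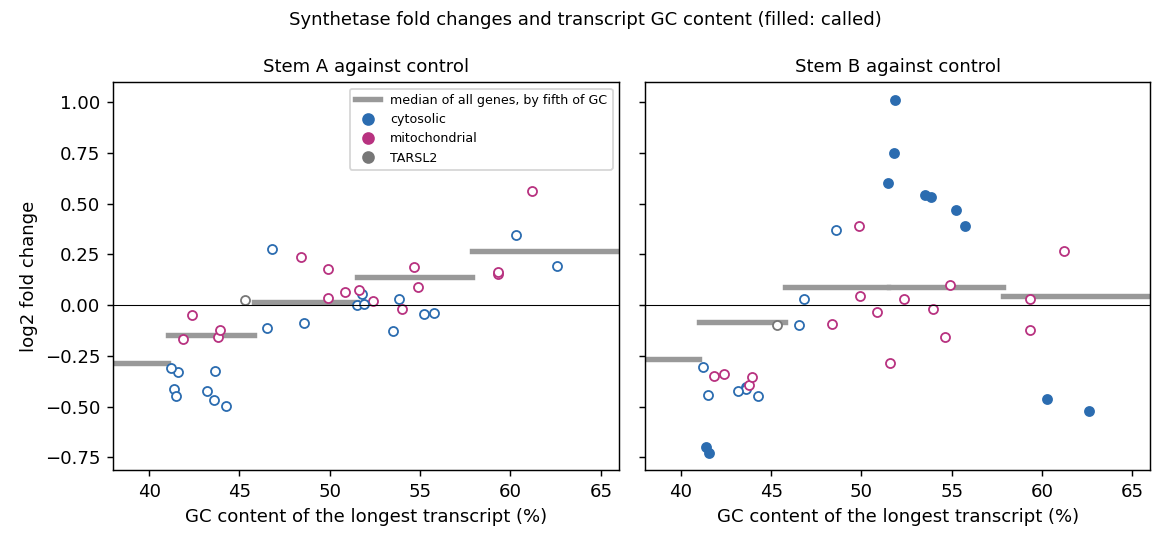
Log2 fold change of 37 synthetases against the GC content of their longest transcripts, for stems A and B against control, filled where called, with grey bars for the median of all genes in 5 equal bins of GC content. In A the grey bars run from -0.29 in the lowest bin, which holds no synthetase, to 0.26 in the highest, and the 8 cytosolic members of the next bin lie below its bar at -0.15. In B the members that rose lie above them at 51.5% to 55.7% GC.

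B against A tests the difference between the treated stems directly. Here 8 synthetases were higher in B, the 7 above and GARS, and 4 were lower, against 8.79% and 9.25% of all genes called higher and lower in edgeR, so the lower share is near the background. CARS was again first, at a log2 fold change of 1.01 (SE 0.12, adjusted p = 6.38e-05), followed by WARS at 0.69 (SE 0.11, adjusted p = 0.000747) and AARS at 0.67 (SE 0.11, adjusted p = 0.00103). SARS stood at 0.60, QARS at 0.51, MARS at 0.50 and YARS at 0.43 log2. GARS was higher by 0.46 (SE 0.14, adjusted p = 0.0281), with 28.9, 22.5 and 23.0 FPKM in control, 24.4, 20.4 and 24.5 in A and 30.3, 35.7 and 29.4 in B. Its B values lay above all others. GARS (0.38 to 0.56 over all alternatives) lost its call without A2, A3 or B2, and YARS (0.36 to 0.55) without A2, A3 or B3. Without the libraries of over 100 HBB counts edgeR called CARS alone, at 0.95 (adjusted p = 0.0456), with 6 of 38 at an unadjusted p under 0.05.

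The 4 members lower in B than in A were FARSA at -0.81 (SE 0.14, adjusted p = 0.00146), VARS at -0.72 (SE 0.14, adjusted p = 0.0022), EARS2 at -0.36 (SE 0.12, adjusted p = 0.043) and TARS2 at -0.34 (SE 0.11, adjusted p = 0.0356). EARS2, the mitochondrial glutamyl-tRNA synthetase, stood at 8.58 to 9.35 FPKM in control, 8.63 to 10.5 in A and 6.86 to 7.48 in B. TARS2 stood at 10.3 to 10.7, 11.5 to 12.1 and 8.67 to 9.83 FPKM. Both had B values below all others, and the EARS2 gene overlaps UBFD1 on the opposite strand. EARS2 and TARS2 lost their calls when library totals replaced edgeR's TMM scaling factors (8 higher and 2 lower), and of the 9 fits without 1 library EARS2 kept its call in 2 (those without Nc1 or A1) and TARS2 in 1 (without Nc1). Over all alternatives EARS2 stood at -0.42 to -0.26 and TARS2 at -0.42 to -0.25, and with GC content and length offsets the split was 9 higher and 11 lower, against 15.2% and 14.5% of all genes.

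Grouped by fold of the catalytic domain, 5 of 9 cytosolic class I enzymes rose in B against control and 2 fell. Of 10 cytosolic class II enzymes, 2 rose and 2 fell. Over all genes tested 6.12% were called higher and 7.24% lower. EPRS joins an enzyme of each class and was counted in neither. Among the 8 enzymes of the multisynthetase complex, MARS and QARS rose and RARS fell, with a median log2 fold change of -0.36. Of the 3 scaffold proteins, AIMP1 fell by 0.76 on the log2 scale (SE 0.14, adjusted p = 0.004 in edgeR), from 11.5 to 14.1 FPKM in control to 6.14 to 8.51 in B. EEF1E1 stood at -0.46 and AIMP2 at 0.02 and were not called. So members of the complex were called in both directions.

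Of 13 synthetases reported as ATF4 targets, 6 rose in B and 1, VARS, fell, with a median log2 fold change of 0.37. This list was drawn up from general knowledge, with earlier results of these data known. Of the other 7 cytosolic enzymes 1 rose and 3 fell, with a median of -0.30. Over all genes tested 6.12% were called higher and 7.24% lower, and the difference between these lists was not tested. EPRS, which is on the list, stood at 31.1, 22.5 and 25.6 FPKM in control, 22.0, 16.3 and 20.3 in A and 21.1, 22.0 and 15.5 in B. A and B overlapped for EPRS and lay below all control values. Within the library, the ratio of CARS to EPRS was 0.128 to 0.161 in control, 0.185 to 0.219 in A and 0.313 to 0.553 in B.

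Of 19 other genes of the ATF4 response, 12 rose in B against control, where 6.12% of all genes tested were called higher. The 19 had a median log2 fold change of 0.60. The 7 that were not called stood at -0.21 to 0.23. The asparagine synthetase ASNS had the largest change at 2.43, on low values of 0.189 to 0.227 FPKM in control and 0.749 to 1.43 in B. CHAC1, which degrades glutathione, stood at 1.42, the transcription factor ATF3 at 1.36, the serine synthesis enzymes PSAT1, PHGDH and PSPH at 1.22, 0.96 and 0.66, and the leucine sensor SESN2 at 1.00. ATF4 itself rose by 0.63 and DDIT4, MTHFD2, DDIT3 and TRIB3 by 0.63, 0.60, 0.56 and 0.44 log2. In A, where 1.76% of all genes tested were called higher, 1 of the 19 was called. This was PPP1R15A, a phosphatase subunit that reverses eIF2 phosphorylation, at 0.82, and it was lower in B than in A by 1.03 log2. Without B3 the share of all genes called higher in B against control was 2.05%. The calls of these 19 genes in that fit are not given here.

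Neighbouring steps of translation showed few calls in B against control, where 7.24% of all genes tested were called lower. Of 6 genes of amino acid sensing, EIF2AK4 (GCN2) fell by 0.51 on the log2 scale and was the only one called. Of the 10 tested among 12 genes that process, export or deliver transfer RNA, the La protein gene SSB fell by 0.69 and was the only one called. EEF1G was listed at 0 in all libraries and AARSD1 was below the filter. None of 4 genes of selenocysteine synthesis was called. Of 7 mitochondrial partners, MTIF2, an initiation factor of mitochondrial translation, fell by 0.91 and QRSL1, a subunit of the complex that makes mitochondrial glutaminyl-tRNA, by 0.49. In A none of these 4 lists had a called member.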

How the data were processed

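RNA of 9 samples was read as paired ends of 150 bases, per the labels. FastQC, HISAT2, StringTie and GRCh38 are named in the submitters' processing notes. For versions, the strand setting and the handling of multi-mapping reads, nothing is given in the sources used here. Counts per gene are whole numbers as deposited. The authors' FPKM equal each count divided by the gene length in the table and by a library constant (0.936 to 1.07 times the total). That gene length, in bases, is the authors' own column.

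Control is read from the stem Nc, and A and B are the treated stems by elimination, without a time. Members and gene lists were chosen with earlier results of these data known. All members may be named, but 1 member and 1 gene of another list are not reported here by name or in the figures, while counts over the members include the member. Those with the 6 lowest adjusted p of each comparison, WARS, EPRS and those that overlap least between groups are given in full. Of the other lists, called members and up to 4 with the lowest adjusted p are named.

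Counts were fitted with edgeR 4.0.16 in R 4.3.3 (TMM, filterByExpr, quasi-likelihood test, Benjamini-Hochberg at 0.05) on all 9 libraries, and the procedure was tested on simulated data. SE is the absolute log2 fold change divided by the square root of F. Alternatives were DESeq2 1.42.0 and its size factors, library totals, no filter (at least 1 count in total), a mean of at least 100 counts, only the compared groups, replicate blocks, offsets for GC content and length (loess with span 0.5 on genes averaging at least 100 counts, longest GENCODE release 29 transcript), limma 3.58.1 on log2(FPKM + 0.1) and each library left out. Deviations from group means over 9729 genes correlated at 0.81, 0.58 and 0.49 between Nc and A libraries of the same number, all over 0.1. The numbers were therefore taken as pairing those 2 groups, from the data and not from the labels. Differently numbered libraries also passed 0.1, with Nc2 and A3 at 0.25 and Nc3 and A2 at 0.11. B2 correlated with Nc1 at 0.59 and with A1 at 0.61, so such values also arise without a shared number. Promoter windows come from RefSeq on GRCh38.p14. Gene symbols were matched by identifier.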

Additional observations from a re-analysis of the deposited data

Results flagged for a closer look

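B and A libraries differed, relative to the same controls, in 12 synthetases, by the direct comparison of the treated stems in edgeR (adjusted p under 0.05). Higher in B than in A on the log2 scale were CARS by 1.01, WARS by 0.69, AARS by 0.67, SARS by 0.60, QARS by 0.51, MARS by 0.50, GARS by 0.46 and YARS by 0.43. Lower were FARSA at -0.81, VARS at -0.72, EARS2 at -0.36 and TARS2 at -0.34. FARSA and VARS lay above the control mean in A and below it in B, with means of 84.5 FPKM in A, 67.2 in control and 48.4 in B for FARSA. For VARS the means were 22.6, 19.98 and 13.8 FPKM in the same order. With GC content and length offsets, A against control stood at 0.10 log2 for FARSA and -0.12 for VARS, neither called.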

How the results depend on the processing

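Over the alternatives run, no synthetase called in the main edgeR fit changed direction. VARS in A was called higher, at 0.17 log2, with the block on the Nc and A libraries alone. With GC content and length offsets beside that block it stood at -0.13 and was not called. In B against control, 7 synthetases were called higher and 4 lower, against 6.12% and 7.24% of all genes. Over all genes the shares were 2.92% and 5.49% without a filter, and 11.5% and 11.3% with GC content and length offsets. Without a filter there were 6 and 10, with GC content and length offsets 6 and 10, with these offsets and the replicate block also 6 and 10, and without the libraries of over 100 HBB counts, chosen after seeing the data, 0 and 0. With each library left out in turn the counts ranged from 3 to 9 higher and from 0 to 5 lower, with 3 and 0 without B3 and 2 lower without Nc3. In B against A, 8 were called higher and 4 lower, against 8.79% and 9.25% of all genes. Library totals, no filter, a mean of at least 100 counts, only the 2 groups compared and the replicate block each left 2 lower. GC content and length offsets gave 11 lower, these with the block 10, and leaving out the HBB libraries 1 higher and 0 lower. With each library left out the counts ranged from 6 to 9 and from 2 to 5. In A against control 0 were called either way. DESeq2 called 2 lower, against 365 of all 13845 genes. The fit without a filter called 5 lower, against 663 of all 27979 genes. The block on the Nc and A libraries alone, added after seeing the data, called 3 higher and 8 lower, against 16.5% and 18.3% of all genes. With GC content and length offsets it called 1 and 9, against 7.05% and 7.4% of all genes. Each library left out in turn gave 0 and 0. The causes of these shifts were not tested, except that fewer libraries leave fewer degrees of freedom. A stem left with 1 library was assumed to vary like the other groups.

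With the replicate number as a block over all 9 libraries, 6 members were called higher and 3 lower in B against control, 7 higher and 2 lower in B against A, and 0 in A. Same-numbered B libraries did not deviate with Nc (correlations of -0.52, -0.59 and -0.31) or with A (-0.49, -0.60 and -0.34), so they share only a number and the block says nothing of a weaker effect. No B library correlated best with the library of its own number.

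The median control FPKM was 24.2 for cytosolic and 7.85 for mitochondrial enzymes, and leaving out each control library gave 22.2 to 25.6 and 7.23 to 8.14. Depth limits the lowest members most: SARS2 had the largest standard error, 0.27 log2 in both comparisons with control. Groups of 3 libraries were too small for a check of single outlying values.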
